A study of Mus musculus with 6 samples.

Results

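The inflammasome and pyroptosis genes examined here are Nlrp3, Aim2, Nlrp1a, Naip5, Nlrc4, Pycard, Casp1, Casp4, Gsdmd and Il18, chosen by name among the 24972 gene rows of the deposited table, in which all 10 were found. An inflammasome is a protein platform that forms in the cytosol when a sensor detects microbial or damage signals. The sensor recruits the adaptor ASC (the product of Pycard) or caspase-1 itself, and active caspase-1 cuts gasdermin D and the precursors of interleukin-1 beta and interleukin-18. The cut gasdermin forms membrane pores that can kill the cell by pyroptosis. In the heart this pathway is best known in macrophages and fibroblasts, and it has also been described in cardiomyocytes.

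RNA came from ventricular myocyte preparations of mice whose genotype is labelled MX1gfp, and both groups share it. The vehicle group (n = 3 mice) received 100 microlitres of phosphate-buffered saline intraperitoneally. The other group (n = 3 mice) received 1 dose of doxorubicin, a DNA-damaging anthracycline, at 25 mg per kg body weight in the same volume. Hearts were taken 48 hours later, digested with collagenase, and the myocytes were settled by gravity, a step that enriches cardiomyocytes without sorting them. The labels give neither age nor sex.

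The values are the authors' normalized counts for each gene, and the 3 values of a group are always given in the order of replicates 1 to 3. Library totals were 7217949 to 7500386 in the vehicle group and 5410780 to 6498373 in the doxorubicin group. Judged by the steps between low values, a library held about 7710000 to 11400000 reads in the vehicle group and 3670000 to 6170000 in the doxorubicin group, so depth and treatment cannot be told apart. Doxorubicin replicate 1 resembled the vehicle libraries, with Spearman correlations of 0.977 to 0.982 across tested genes, whereas doxorubicin replicates 2 and 3 lay between 0.860 and 0.914. In other cell type markers replicate 1 stood apart from both groups: erythroid, atrial and lymphocyte markers summed to 5.82, 2.89 and 2.75 times their vehicle means there. In replicates 2 and 3 the erythroid sum was 0.161 and 0.272 times, the atrial sum 0.745 and 1.40 times and the lymphocyte sum 0.282 and 0.49 times the vehicle mean. For the tested genes described here, a value without replicate 1 is given where it changes the call. Replicate 1 was singled out by these same values. Leaving out the doxorubicin library nearest to vehicle tends to widen differences, so calls made without it are not independent support. The cardiomyocyte label was met: the summed level of 8 cardiomyocyte markers (among them Myh6 and Tnnt2) was 573600 to 673400 normalized counts with vehicle. It was 505500, 167500 and 144800 with doxorubicin. In such bulk samples, fewer cells of a type and less RNA per cell cannot be told apart.

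After doxorubicin 9 of the 10 members had higher mean values and 1, Pycard, had a lower one. Among the 7 tested members 6 had a positive difference, as had 49.6% of all tested genes. In 6 of the 10 every doxorubicin library lay above every vehicle library, namely Nlrp3, Naip5, Nlrc4, Casp4, Gsdmd and Il18. Among all 17074 genes with a value above 0 in some library, the share with that pattern was 16.0%. Pycard showed the opposite pattern, which 17.4% of those genes shared. Among the 7 members tested, Casp4 and Gsdmd had the largest differences in relation to their standard errors. With limma on log2(value + 1), 0 of the 7 members that reached a mean of 10 normalized counts passed a Benjamini-Hochberg adjusted p of 0.05, in either direction. Over the whole table the shares called were 0% higher and 0% lower, of 12477 genes tested. At an unadjusted p under 0.05 limma counted 4 members, all higher (Nlrp3, Naip5, Casp4 and Gsdmd), where 16.7% of the tested genes were higher at that level and 19.3% lower. Of the 7 tested members, 5 also reached that mean in the vehicle group alone. Nlrp3 and Aim2 reached it through their doxorubicin values.

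**Figure D1:**
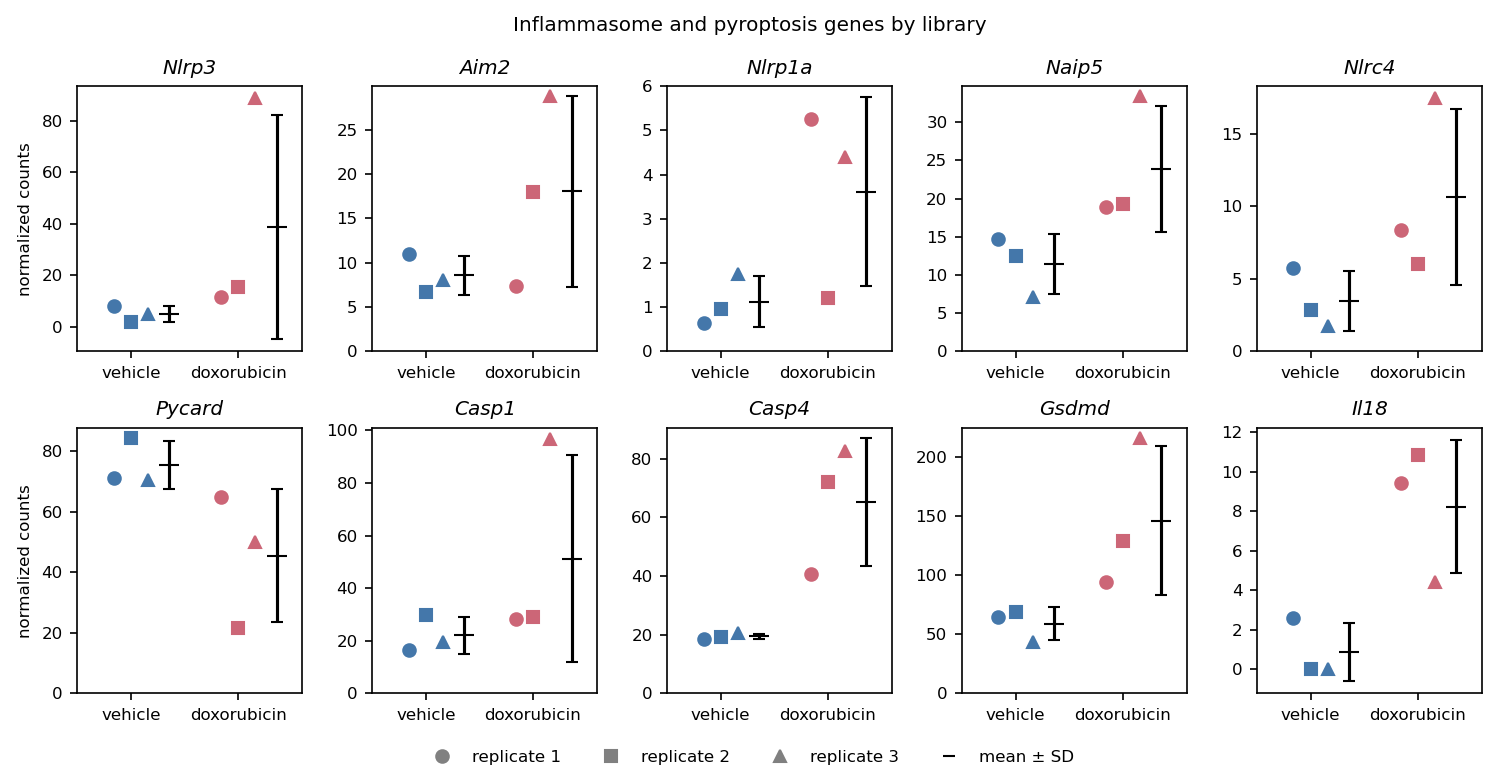
Normalized counts (vertical axes, linear, a separate scale for each gene) of the 10 members in the 3 vehicle and 3 doxorubicin libraries; symbols give the replicate, and black marks the mean ± SD. The doxorubicin points lie above all vehicle points in 6 panels and below them in the Pycard panel, and doxorubicin replicate 3 is the highest library in 7 panels.

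The number of members outside the vehicle range differed little between the doxorubicin libraries. Replicate 1 held 7 of the 10 above all vehicle values, replicate 2 also 7, and replicate 3 held 9. The corresponding shares of all 17074 genes were 29.7%, 37.9% and 40.4%. Pycard was below all vehicle values in each of the 3 libraries. Replicate 1 missed Aim2 and Casp1, and replicate 2 missed Nlrp1a and Casp1. Although replicate 1 resembled the vehicle libraries over the whole table, it therefore shared most of the direction seen in these genes, at smaller size for Nlrp3, Casp4 and Gsdmd.

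Among the sensors, Nlrp3 (chromosome 11, 59541569 to 59566955, GRCm38.p6) showed the largest difference. Its product responds to potassium loss and other signs of cell damage and assembles the best-studied inflammasome. Nlrp3 had 8.28, 1.92 and 5.24 normalized counts with vehicle and 11.6, 15.6 and 88.8 with doxorubicin. The groups did not overlap, but replicate 3 alone stood far above the rest, and the lowest vehicle value rested on about 2 reads. The difference was 2.27 on the log2(value + 1) scale (SE 0.83, 95% interval 0.33 to 4.20, limma adjusted p 0.104). It was 1.39 without doxorubicin replicate 3 (adjusted p 0.244). Without replicate 1 it was 2.80, and Nlrp3 then passed the threshold (adjusted p 0.0257).

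Naip5 (chromosome 13, 100211735 to 100250930) encodes a receptor for bacterial flagellin that hands its signal to Nlrc4. Its values were 14.8, 12.5 and 7.07 with vehicle and 18.9, 19.3 and 33.4 with doxorubicin. All doxorubicin libraries were above the vehicle range, by a small margin in replicates 1 and 2. The difference was 1.00 (SE 0.43, 95% interval 0.01 to 1.99, limma adjusted p 0.136). Naip5 lies in a cluster of near-identical genes with Naip2 (100144063 to 100202122) and Naip6 (100281121 to 100316616). How the authors' counting divided reads between these copies is not known, so the value of any 1 of them is uncertain.

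Nlrc4 (chromosome 17, 74426255 to 74459144), the partner of the NAIP receptors, can engage caspase-1 directly. It was low, with 5.76, 2.89 and 1.76 normalized counts with vehicle and 8.39, 6.02 and 17.5 with doxorubicin. The groups did not overlap, yet the gap between the highest vehicle and the lowest doxorubicin value was smaller than the worth of 1 read. With a mean of 7.05 over the 6 libraries, Nlrc4 was not tested. A processed pseudogene annotated in GENCODE M21 overlaps it on the same strand.

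Aim2 (chromosome 1, 173349547 to 173466040) encodes a sensor that binds double-stranded DNA in the cytosol. It had 10.96, 6.75 and 8.004 normalized counts with vehicle and 7.33, 18.0 and 28.8 with doxorubicin. The groups overlapped, because replicate 1 lay within the vehicle range. The difference was 0.83 (SE 0.56, 95% interval -0.47 to 2.14, limma adjusted p 0.307). It was 0.42 without replicate 3 (adjusted p 0.646) and 1.34 without replicate 1, where Aim2 passed narrowly (adjusted p 0.0482). Cadm3 overlaps Aim2 on the opposite strand in GENCODE M21, and the use of strand in counting is not given in the sources used here. Cadm3 itself was at 13.4 to 31.3 with vehicle and 29.7 to 43.4 with doxorubicin.

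Nlrp1a (chromosome 11, 71091197 to 71144969), 1 of the mouse relatives of human NLRP1, was close to the limit of detection. Its values were 0.640, 0.962 and 1.76 with vehicle and 5.25, 1.20 and 4.39 with doxorubicin. These correspond to about 1 to 5 reads in a library, and the groups overlapped. The neighbouring copy Nlrp1b shares sequence with it, and no difference was detectable at this depth.

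Pycard (chromosome 7, 127991373 to 127993867) encodes ASC, whose polymers link NLRP3 and AIM2 to caspase-1, and it was the single member with lower values. It held 71.3, 84.6 and 70.5 normalized counts with vehicle and 65.0, 21.7 and 50.0 with doxorubicin. The doxorubicin values were all below the vehicle range, only just so in replicate 1, and replicate 2 was the lowest. The difference was -0.85 (SE 0.39, 95% interval -1.74 to 0.05, limma adjusted p 0.156). It was -0.39 without doxorubicin replicate 2 (adjusted p 0.261) and -1.17 without replicate 1 (adjusted p 0.027). When each library was scaled to the same total, which moved the median of all genes to 0.29, the difference was -0.55 and the groups overlapped. No other member had a lower mean after doxorubicin.

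Casp1 and Casp4 lie next to each other on chromosome 9 on the same strand, at 5298517 to 5307281 and 5308849 to 5336791, and Casp12 follows at 5345442 to 5373034. Casp4, also called caspase-11 in the mouse, binds bacterial lipopolysaccharide in the cytosol and cuts gasdermin D without an inflammasome sensor. It had 18.6, 19.3 and 20.5 normalized counts with vehicle, and 40.7, 72.2 and 82.6 with doxorubicin. Every doxorubicin library was at least 2.09 times the vehicle mean. The difference was 1.63 (SE 0.31, 95% interval 0.91 to 2.36), with the smallest adjusted p that limma gave over the whole table (0.0859), a value many genes share. Leaving out single libraries moved the difference only between 1.43 and 1.94. Without doxorubicin replicate 1, Casp4 passed with an adjusted p of 0.000979.

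Casp1 encodes the protease shared by the canonical inflammasomes. Its values were 16.7, 29.9 and 19.6 with vehicle and 28.2, 28.9 and 96.7 with doxorubicin. Doxorubicin replicates 1 and 2 lay within the vehicle range, and replicate 3 stood alone. The difference was 0.97 (SE 0.51, 95% interval -0.21 to 2.15, limma adjusted p 0.201), and 0.40 without replicate 3 (adjusted p 0.487). Leaving out replicate 1 gave 1.27, which also missed the threshold (adjusted p 0.0765). Casp12, from the wider pathway list, encodes another inflammatory caspase of this cluster. It had 42.8, 60.0 and 32.4 with vehicle and 65.5, 125 and 127 with doxorubicin (difference 1.20, SE 0.34, limma adjusted p 0.0859), and without replicate 1 it passed (1.51, adjusted p 0.00387). Whether these 3 neighbours differ from each other in their response was not tested.

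The bases just before the start site were examined for 4 short motifs, because several members had higher values together. RefSeq start sites of GRCm38.p6 were at hand for 9 of the 10 members (11 windows, each of 250 bases before and 50 after a start). The 4 stretches shown are the 150 bases before the most upstream start of the adaptor, of the most studied sensor and of the 2 neighbouring caspases. Capitals mark the NF-kappaB consensus in Casp4 and the letters AGGAAG or their reverse complement, the core of sites bound by PU.1 and other ETS factors, in the others. They are read 5′ to 3′ on the strand of the gene, at chr9:5308699-5308848 (plus strand), chr9:5298367-5298516 (plus), chr11:59541419-59541568 (plus) and chr7:127993868-127994017 (minus).
Casp4: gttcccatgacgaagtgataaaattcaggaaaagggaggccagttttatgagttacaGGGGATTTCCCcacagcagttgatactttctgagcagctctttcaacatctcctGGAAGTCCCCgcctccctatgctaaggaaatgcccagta
Casp1: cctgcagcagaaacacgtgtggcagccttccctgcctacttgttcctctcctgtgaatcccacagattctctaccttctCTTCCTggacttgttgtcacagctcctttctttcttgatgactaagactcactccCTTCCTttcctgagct
Nlrp3: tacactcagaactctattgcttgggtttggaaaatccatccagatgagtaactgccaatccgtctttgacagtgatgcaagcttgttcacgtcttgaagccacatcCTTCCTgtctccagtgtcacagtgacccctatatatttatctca
Pycard: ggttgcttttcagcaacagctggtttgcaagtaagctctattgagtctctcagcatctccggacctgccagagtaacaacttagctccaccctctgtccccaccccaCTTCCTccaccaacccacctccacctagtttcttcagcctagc

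Casp4 held the NF-kappaB consensus in overlapping copies from position -93 and once more, on the other strand, from position -39, counted from the start site. Nlrp3 and Naip5 each held it in a window as well, outside the stretches shown, so 3 of 9 members had a match, against 9.55% of 27025 genes with a window. AGGAAG on either strand occurred in 7 of 9 members (all but Casp4 and Il18) and in 38.4% of genes. The interferon-stimulated response element core (GAAA, any 2 bases, GAAA) was in 0 of 9 members and in 3.99% of genes. The gamma-activated site core TTCNNNGAA was also in 0 of 9, and in 9.55% of genes. These matches describe letters within the windows only. AGGAAG and the NF-kappaB consensus were chosen after the sequences were seen, so setting their counts beside these shares is not a test. Pycard, which had lower values, and Casp1 and Nlrp3, which had higher means, held the same AGGAAG core.

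Gsdmd (chromosome 15, 75862144 to 75867408) encodes gasdermin D, the pore-forming substrate on which caspase-1 and caspase-4 converge. It had 64.7, 68.9 and 43.5 normalized counts with vehicle and 93.9, 129 and 216 with doxorubicin. The groups did not overlap, and the mean went from 59.0 ± 13.6 to 146 ± 62.8 (SD, n = 3 in each group). The difference was 1.24 (SE 0.33, 95% interval 0.47 to 2.00, limma adjusted p 0.0859). Without doxorubicin replicate 1 it was 1.51 and passed (adjusted p 0.00498), and without replicate 3 it was 0.91 (adjusted p 0.19).

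Il18 (chromosome 9, 50554700 to 50581841) encodes the cytokine precursor that caspase-1 matures and that drives interferon gamma release from lymphocytes. It was listed at 2.57, 0 and 0 normalized counts with vehicle and at 9.45, 10.8 and 4.41 with doxorubicin. The groups did not overlap, but the values rest on about 4 reads or fewer with vehicle and 3 to 9 with doxorubicin. Unlike most members, Il18 was lowest among the doxorubicin libraries in replicate 3. Its mean of 4.54 kept it out of the test, and Bco2, which overlaps it on the opposite strand, stood at 0 to 5.27 with vehicle and 3.62 to 5.25 with doxorubicin.

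Levels were also set per kilobase of the longest RefSeq-matched GENCODE transcript. With Pycard left aside, Gsdmd had the highest vehicle level among the members, at 32.9 normalized counts per kilobase (24.2 to 38.4 over the 3 libraries). Casp1 followed at 14.7 ± 4.63 and Casp4 at 13.6 ± 0.667 (SD, n = 3), neighbours in the order whose values overlap. The sensors were lower, from 3.02 for Aim2 and 2.20 for Naip5, also overlapping in range, to 1.28 for Nlrp3, 0.734 for Nlrc4 and 0.297 for Nlrp1a. Pycard had a higher vehicle mean than Gsdmd before scaling by length, 75.5 against 59.0, and would stand at 19.9 per kilobase. Its GENCODE transcript of 3800 bases extends beyond the RefSeq gene, so 19.9 may be too low. Its place in the order, above or below Gsdmd, is uncertain. In the doxorubicin libraries the level of Casp4 was 28.4 to 57.6 per kilobase and that of Casp1 18.8 to 64.6. In both groups the means of Gsdmd, Casp1 and Casp4 were above those of all sensors on this scale, the largest sensor mean with doxorubicin being 9.62 for Nlrp3.

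**Figure D2:**
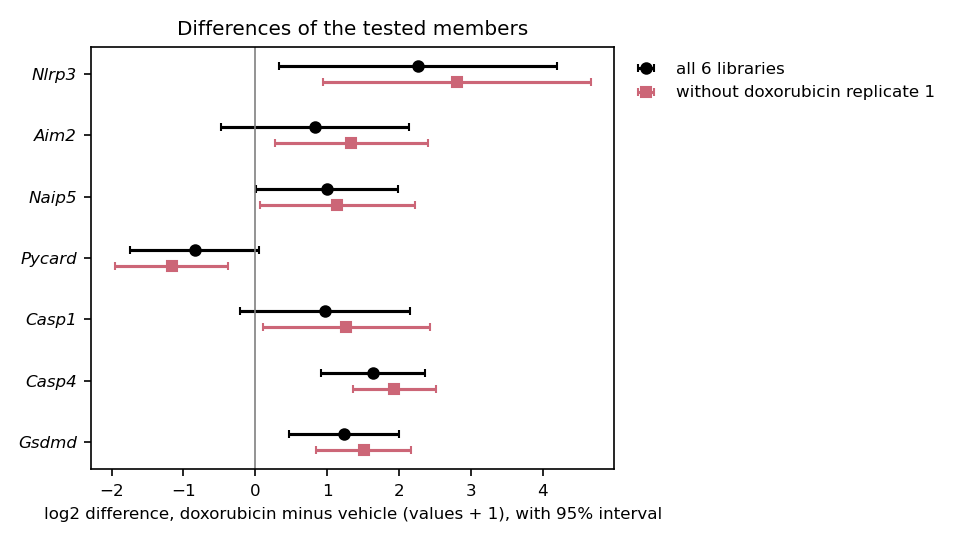
Difference between doxorubicin and vehicle on the log2(value + 1) scale (horizontal axis) with its 95% interval for the 7 tested members, with all 6 libraries (circles) and without doxorubicin replicate 1 (squares). Casp4, at 1.63, has the narrowest interval above 0, and Pycard, at -0.85, is the single member to the left of 0.

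Without doxorubicin replicate 1, limma called 4 members higher (Nlrp3, Aim2, Casp4 and Gsdmd) and 1 lower (Pycard) at an adjusted p under 0.05. The shares over all tested genes were then 19.3% higher and 21.8% lower. The genes tested were still those chosen on all 6 libraries. Nlrp3 and Aim2 had reached the minimum mean through their doxorubicin values, so these calls include genes that had to differ. Leaving out doxorubicin replicate 2 or 3 instead gave 0 members called, with smallest adjusted p of 0.166 and 0.19. The libraries also differed in transcripts of the X and Y chromosomes: vehicle replicate 3 and doxorubicin replicates 1 and 3 carried Xist, the others Y-linked transcripts. Within each of these classes 9 of the 10 members had higher means after doxorubicin and Pycard a lower one, as values without a test, since each class holds 3 libraries. The share over all genes was not counted. In the Y-linked class the only doxorubicin library is replicate 2. There Casp1 (28.9) lay between the vehicle values of its class (16.7 and 29.9), and Nlrp1a rested on about 1 read in each library.

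Markers of macrophages, neutrophils and monocytes, like most members, had higher means after doxorubicin, whereas lymphocyte markers were higher in replicate 1 and summed to less than the vehicle mean in replicates 2 and 3, with 0 of 7 detected markers free of overlap. All 10 macrophage markers (Adgre1, Cd68, C1qa, C1qb, C1qc, Csf1r, Mrc1, Fcgr1, Lyz2 and Cd163) had higher means after doxorubicin, 9 of them with groups that did not overlap, and none was listed at 0. Groups lay apart in this direction in 16.0% of the 17074 genes with a value above 0 in some library. Of the tested genes, 49.6% had a positive difference. Their summed level was 2583 to 2791 normalized counts with vehicle and 4238, 7421 and 15610 with doxorubicin, which is 1.57, 2.74 and 5.77 times the vehicle mean. The surface marker Adgre1 was at 95.1 to 116 with vehicle and at 146, 173 and 1818 with doxorubicin. Cd68 was at 46.9 to 64.8 and then at 90.3, 133 and 462, and the complement gene C1qa at 283 to 348 and then at 562, 1122 and 1130. The cardiomyocyte myosin Myh6 was at 182000 to 300000 and then at 225700, 33550 and 47430. Neutrophil markers (8 of 8 higher, 5 without overlap) summed to 11.2 to 21.7 and to 56.1, 639 and 476. Ly6g, Retnlg and Ngp were listed at 0 in all vehicle libraries, and the alarmin S100a8 went from 1.78 to 5.71 in these to 14.5, 130 and 107. Markers of recruited monocytes (6 of 6 higher, 4 without overlap) summed to 281 to 301 and to 315, 1355 and 2065. With vehicle that sum rests largely on Vcan (166 to 204), which was also its largest part in doxorubicin replicate 2 (609). In replicate 3 that sum rests largely on Itgam (1234) and Ms4a6c (509). Ccr2 differed far less, from 15.6 to 20.6 with vehicle to 29.2, 22.8 and 21.3 with doxorubicin. These genes were named after their values were seen.

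The same ratios for the members can be read beside these. Nlrp3 stood at 2.25, 3.04 and 17.3 times its vehicle mean with doxorubicin, and Casp1 at 1.28, 1.31 and 4.38. Casp4 was at 2.09, 3.71 and 4.25 times and Gsdmd at 1.59, 2.18 and 3.66 times. In replicate 3, where the macrophage sum was highest, Nlrp3 exceeded that sum's ratio and Casp1, Casp4 and Gsdmd did not. Among these 4, Nlrp3, Casp4 and narrowly Gsdmd exceeded it in replicate 1, and Nlrp3 and Casp4 in replicate 2. Single macrophage markers departed from their sum. In replicate 3 Lyz2 made up 6811 of 15610, and Fcgr1 went from 10.5 to 19.2 with vehicle to 36.8, 14.5 and 297. The neutrophil sum, at 3.13, 35.7 and 26.6 times, exceeded all 4 members in each replicate. The monocyte sum stood at 1.08, 4.62 and 7.04 times. It was below all 4 in replicate 1, above them in replicate 2, and above all but Nlrp3 in replicate 3. Pycard was at 0.861, 0.287 and 0.662 times, against the direction of the macrophage, monocyte and neutrophil sums. The part that these cell types play in the members' differences was not tested. Endothelial markers summed to 1.40, 1.31 and 1.67 times and fibroblast markers to 1.23, 3.34 and 2.37 times their vehicle means. The fibroblast sum rests largely on Dcn: without it, a choice made after the values were seen, the ratios were 1.28, 1.11 and 1.16.

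**Figure D3:**
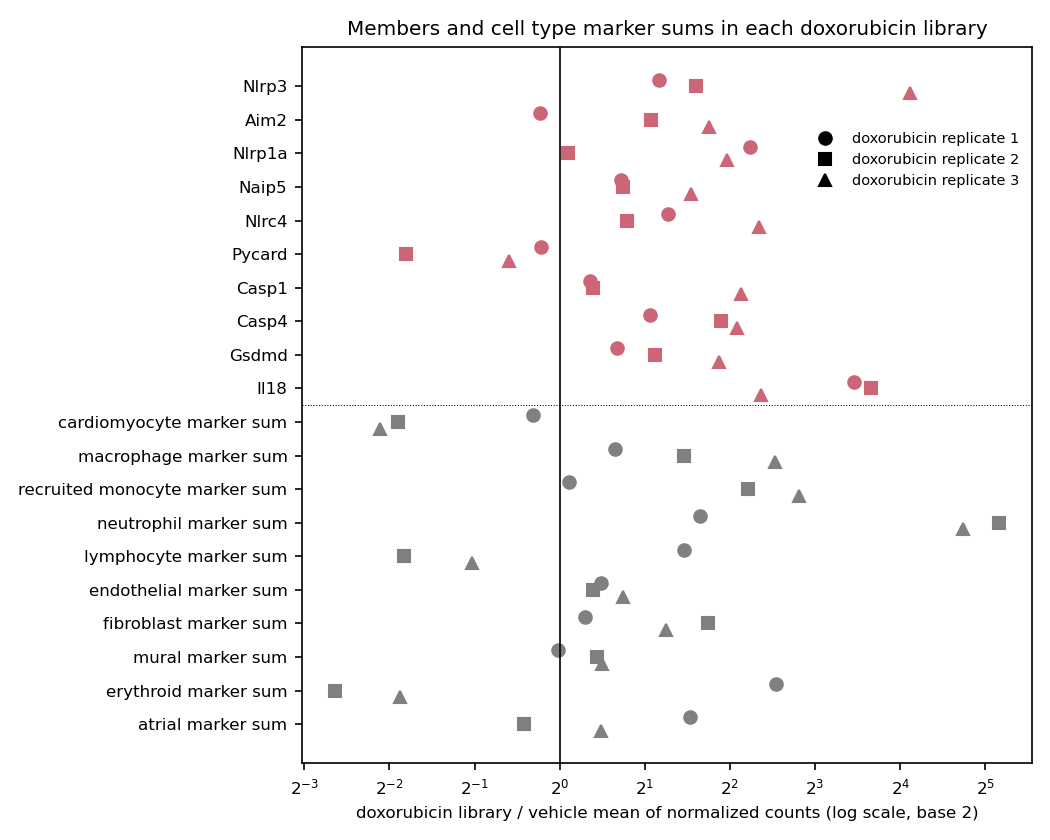
Ratio of each doxorubicin library to the vehicle mean of normalized counts (horizontal axis, log scale with base 2) for the 10 members (red) and for summed cell type markers (grey); symbols give the replicate, and the vertical line marks no difference. Doxorubicin replicate 3 reaches 17.3 for Nlrp3 and 5.77 for the macrophage sum, while all 3 Pycard points and all 3 cardiomyocyte points lie below 1.

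A wider list of 38 pathway genes was read in the same fit, of which 28 were tested. Il1a, Il1rn, Panx1, Il18r1, Naip6 and Gm12250 reached the minimum mean only through their doxorubicin values. The counts and the median that follow therefore include genes that had to have higher means, and they were not repeated without them. With limma, 0 passed an adjusted p of 0.05 in either direction. Of the tested genes 23 had a positive difference and 5 a negative one, with a median of 0.80 against -0.0046 over all tested genes. The doxorubicin values lay wholly above the vehicle values in 12 and wholly below them in 2 (Nlrp10 and Brcc3), where the shares over all tested genes were 19.2% and 22.6%. At an unadjusted p under 0.05 there were 10 higher and 1 lower of 28, against 16.7% and 19.3% of all tested genes. With doxorubicin replicate 2 or 3 left out, 0 were called in either direction. Without doxorubicin replicate 1, limma called 15 higher and 1 lower (Nlrp10) at an adjusted p under 0.05, against 19.3% and 21.8% of all tested genes. Those higher were Naip2, Txnip, P2rx7, Kcnk6, Panx1, Gbp2, Gm12250, Casp8, Casp12, Ninj1, Il1b, Il1rn, Il1r1, Il1rap and Il18r1.

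Among the other sensors, Naip2 encodes a receptor for parts of bacterial secretion systems. It had 15.4 to 32.1 normalized counts with vehicle and 38.8, 69.8 and 157 with doxorubicin (difference 1.78, SE 0.51, limma adjusted p 0.0859). Without replicate 1 Naip2 passed (2.25, limma adjusted p 0.00461). The tested genes of this role were Naip2, Naip6 and Nlrp10. Nlrp10, named after its values were seen, had a lower mean, from 368 ± 36.6 to 230 ± 81.7 (SD, n = 3 in each group), a difference of -0.74 (adjusted p 0.109), and -0.95 without replicate 1 (adjusted p 0.0195). Mefv, which encodes pyrin and was also named after its values were seen, was listed at 0 in 5 libraries and at 33.9 in doxorubicin replicate 3. Nlrp6, Naip1 and Gsdmc were listed at 0 in all 6.

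Of the 11 tested genes that activate or restrain the sensors, 0 passed an adjusted p of 0.05 with limma. In 5 all doxorubicin values lay above the vehicle values, and in 1, Brcc3, they all lay below. The shares of all tested genes with these patterns were 19.2% and 22.6%. P2rx7, the ATP-gated channel whose opening lets potassium out, had 39.9 to 43.8 normalized counts with vehicle and 65.2, 63.2 and 115 with doxorubicin (0.86, SE 0.27, limma adjusted p 0.0863). The potassium channel gene Kcnk6 had 44.8 to 67.3 and then 90.5, 98.0 and 169 (1.04, SE 0.28, adjusted p 0.0859). Panx1, which forms a channel releasing ATP, had 5.21 to 14.5 and then 14.8, 35.1 and 38.8 (1.59, SE 0.53, adjusted p 0.0895). Each of these 3 showed full separation of the groups, although the margin in Panx1 was below 1 read in replicate 1. Gbp2, an interferon-inducible GTPase that coats bacteria and exposes lipopolysaccharide to caspase-11, had 276 to 338 and then 485, 422 and 751 (0.85, SE 0.23, adjusted p 0.0859). Without doxorubicin replicate 1 these 4 passed, P2rx7 at 0.99 (limma adjusted p 0.0239), Kcnk6 at 1.21 (0.0115), Panx1 at 2.01 (0.0123) and Gbp2 at 0.92 (0.0182). Brcc3, whose product removes ubiquitin from NLRP3, differed by -0.33 (adjusted p 0.155). Nek7, the kinase that licenses NLRP3 assembly, differed by 0.21 (95% interval -0.43 to 0.86, adjusted p 0.601), with replicate 2 alone above the vehicle range.

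Of the other proteases and pore formers, Casp8, which can cut gasdermin D and also starts apoptosis, had 99.0 to 119 normalized counts with vehicle and 122, 145 and 181 with doxorubicin (0.42, SE 0.19, limma adjusted p 0.156), and it passed without replicate 1 (0.56, adjusted p 0.0382). Ninj1, needed for the final rupture of the membrane, differed by 0.32 (95% interval -0.29 to 0.93, adjusted p 0.396), and its groups overlapped. Without doxorubicin replicate 1 they did not, and Ninj1 passed with a difference of 0.61 (adjusted p 0.0222). Gsdme, the gasdermin cut by caspase-3, was below the minimum for testing, at 0 to 1.75 with vehicle and 2.11, 3.604 and 5.92 with doxorubicin. Gsdma and Gsdmc were below the minimum as well.

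The interleukin-1 branch was set apart by 1 library. Il1b, the main cytokine substrate of caspase-1, had 23.0, 12.5 and 9.70 normalized counts with vehicle and 33.5, 30.1 and 979 with doxorubicin. Its difference was 2.75 (SE 1.23, limma adjusted p 0.151) and 1.11 without replicate 3 (adjusted p 0.199), and the groups did not overlap. Without replicate 1 it was 3.53 and passed (adjusted p 0.0454). Il1a and Il1rn, named after their values were seen, were at 409 and 740 in replicate 3, against 2.91 or less in every vehicle library and 10.9 or less in doxorubicin replicates 1 and 2. Without replicate 1, Il1rn passed (difference 5.66, limma adjusted p 0.0202) and Il1a did not (3.85, adjusted p 0.132). Replicate 3 was also the library with the highest Nlrp3, Casp1 and Gsdmd, and with the highest macrophage sum. The receptors differed more evenly. Il1r1, the signalling receptor for interleukin-1, had 178, 162 and 130 with vehicle and 251, 413 and 394 with doxorubicin (1.14, SE 0.23, adjusted p 0.0859), and passed without replicate 1 (1.37, adjusted p 0.000891). Il18r1, a chain of the interleukin-18 receptor, had 1.52 to 8.53 and then 10.4, 49.1 and 19.8 (2.20, SE 0.74, adjusted p 0.0906), highest in replicate 2, and passed without replicate 1 (2.70, adjusted p 0.0185). Il1a, Il1rn, Panx1, Il18r1, Naip6 and Gm12250 reached the minimum mean through their doxorubicin values, so the counts over the tested list include genes that had to differ.

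**Figure D4:**
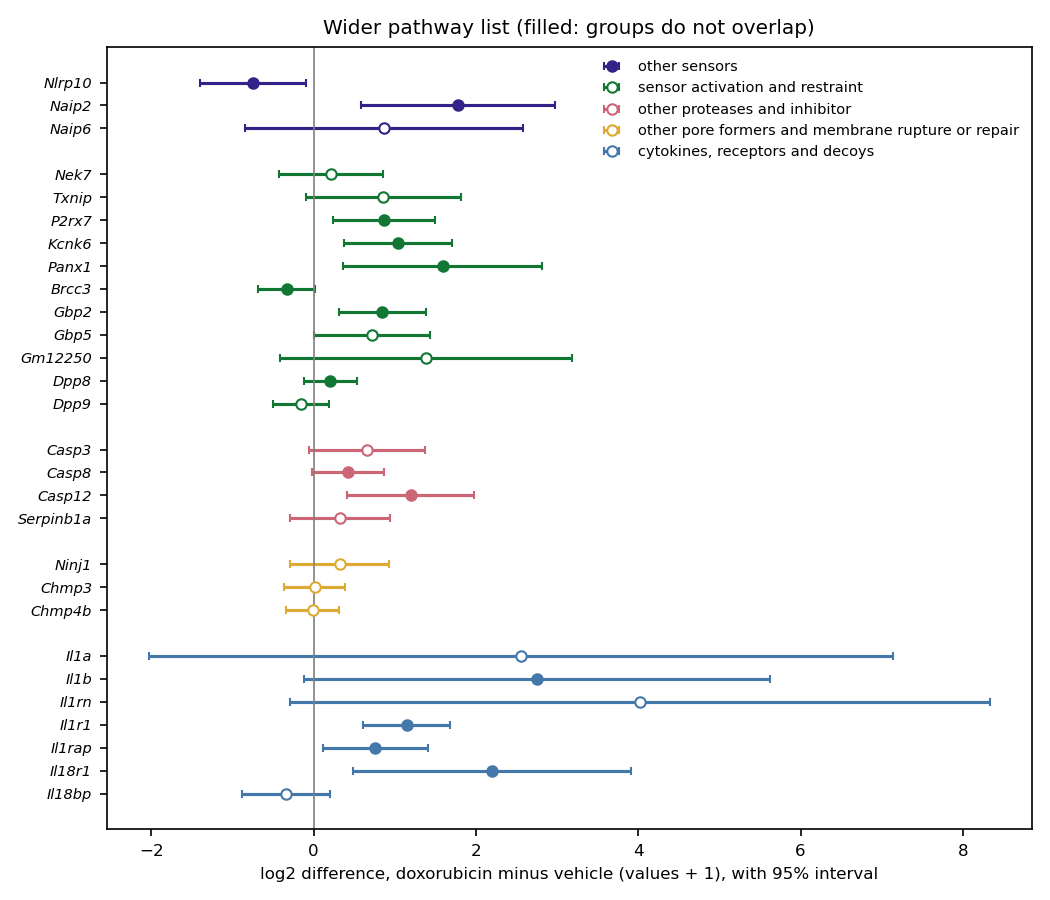
Difference between doxorubicin and vehicle on the log2(value + 1) scale (horizontal axis) with its 95% interval for the 28 tested genes of the wider pathway list, coloured by role; filled symbols mark genes whose groups do not overlap. Intervals are widest for Il1a, Il1b and Il1rn, where doxorubicin replicate 3 stands apart, and Il1r1, at 1.14, has the smallest p of the list.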

How the data were processed

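Per the series' design text, RNA from isolated cardiomyocytes was sequenced and aligned with STAR to mm10 and RefSeq genes in the BaseSpace applications RNAseq Alignment 2.0.2 and RNA-seq Differential Expression 1.0.1. The submitters' processing notes also name STAR 2.6.1a and Salmon. For counting settings, use of strand and normalization method, nothing is given in the sources used here. The authors deposited 1 column of normalized counts per library, a signal at or above 0.

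The most common low value of a library was taken as 1 read (a step). Of values under 8.5 steps, 80.0% to 92.5% were whole multiples of it with a tolerance of 0.1 step. Since the remaining values were not whole, no count model was applied. Values were tested as log2(value + 1) with limma 3.58.1 in R 4.3.3 (trend, two-sided, Benjamini-Hochberg over 12477 rows with a mean of at least 10), and the procedure was tested on simulated data. Groups came from the sample titles. An exact permutation test of 3 libraries against 3 cannot give a p below 0.1. Other pseudocounts, filters, scalings and moderation settings, library weights, a replicate block and leaving out each library were tried.

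The 10 members, the wider list, the markers and the tests were chosen with earlier results of these data known. The rule for names took all members, Il1b, Nek7, Gsdme, Ninj1 and Casp8, the 8 other tested list genes with the smallest p, and Adgre1, Cd68, C1qa, S100a8 and Myh6. Coordinates and promoters come from RefSeq (GRCm38.p6), lengths from GENCODE M21. Motifs were searched on both strands, and AGGAAG and the NF-kappaB consensus were chosen after the sequences were seen.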

Additional observations from a re-analysis of the deposited data

How the results depend on the processing

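Of 131 member differences and list medians recomputed under other settings, 0 changed sign. In 9 a member passed the threshold, and the other 122 were counted as the same. The list medians have no threshold and were judged by sign only. Other filters, moderation settings and the replicate block leave a member's difference unchanged, so its sign could not change there. The number of genes called depended on doxorubicin replicate 1. Library weights (0.277 for that library) called 1954 genes higher and 2318 lower over the table, 3 members higher and 1 lower, and 10 wider-list genes higher and 1 lower. An adjusted p of 0.10 as threshold called 1383 higher and 1639 lower, 2 members higher and 8 wider-list genes higher. Leaving out 1 library at a time gave 0 to 2409 genes higher and 0 to 2718 lower, 0 to 4 members higher and 0 to 1 lower, and 0 to 15 wider-list genes higher and 0 to 1 lower. The members without overlap numbered 6 to 7 higher and 1 lower over these. Leaving out a library cannot make separated groups overlap, so these counts could not fall. The share over all genes was not counted for them. With equal totals 0 members were lower without overlap.

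The replicate block was tried for numbers that do not pair the libraries. Correlations of same-numbered deviations were -0.13, 0.03 and -0.09, and no library correlated best with its own number. With the block, 0 genes, 0 members and 0 wider-list genes were called in either direction. The class covariate from Xist and Y-linked transcripts, added after the data were seen, also called 0. Genes with a mean near 10 normalized counts rest on about as many reads, which limits Nlrp1a, Nlrc4, Il18 and Aim2 most. Nlrp3 is limited in the same way in the vehicle group, where it rests on about 13, 2 and 6 reads.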
